A study of Mus musculus with 6 samples.

Results

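Genes of glucose transport, glycolysis and glycogen metabolism were examined in C2C12 myotubes given RANKL and in myotubes given vehicle. The members were 34 genes taken by name for their place in these pathways, and 33 of them were among the 12625 genes of the count table. Phkg1, the catalytic subunit of muscle phosphorylase kinase, was the remaining one and is not analysed here. C2C12 is an established line of mouse myoblasts, which fuse into myotubes in low serum, and RANKL (TNFSF11) is the cytokine that drives osteoclast formation through its receptor RANK. Per the labels, the 3 RANKL libraries came from myotubes exposed at 5 days of differentiation to 100 ng/ml of recombinant mouse protein for 72 h. The 3 vehicle libraries came from the same line without it. For these the labels give no day of differentiation and no time in culture, so a match in stage between the groups is not stated. The labels give no further genotype or agent for any of the 6 libraries, and they name no separate cultures, so the p-values speak for the variation among these libraries alone, and that variation may be technical.

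Glucose enters muscle through facilitative transporters, is trapped as glucose 6-phosphate by hexokinase, and is split and oxidised in the cytosol to pyruvate, which is reduced to lactate or passed to the mitochondrion. Glucose 6-phosphate is also stored as glycogen and released again by glycogen phosphorylase when the fibre contracts. Myoblasts that become muscle replace several of the enzymes with muscle isoforms (Pfkm, Pgam2, Eno3, Pygm), and many glycolytic genes are classical targets of hypoxia-inducible factor.

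Library totals lay between 32732604 and 39677999 counts. The first principal component of log2 expression held 60.2% of the variance and parted the groups (-12.2 to -11.4 for vehicle, 9.93 to 14.5 for RANKL). RANKL replicates 1 and 3 lay farthest apart on the second, which held 14.4%, and the members took part in that difference. RANKL replicate 1 had the highest value of the 3 RANKL libraries in 27 of 33 members (81.8%), against 35.6% of all genes, and RANKL replicate 3 the lowest in 24 (72.7%), against 35.5%. The summed level of the members was 10173, 10035 and 10171 CPM (counts per 1000000, on scaled library totals) in vehicle replicates 1, 2 and 3, and 10965, 10213 and 9852 CPM in RANKL replicates 1, 2 and 3, so that the groups overlapped in the sum. The myotube markers Ckm and Myh3 were abundant in every library, at 424 to 499 CPM and 6976 to 7989 CPM.

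Of the 33 members, 3 rose and 3 fell under RANKL (edgeR's quasi-likelihood test, Benjamini-Hochberg adjusted over all genes), which is 18.2% against 12.9% of all genes called. The background was 5.35% of all genes for a rise and 7.5% for a fall, so the share called among the members lay near it. Those that rose were Pgk1 (phosphoglycerate kinase), Ldha (the muscle-type subunit of lactate dehydrogenase) and Pfkfb3 (which makes fructose 2,6-bisphosphate, the activator of phosphofructokinase). Those that fell were both hexokinases, Hk1 and Hk2, and Pygm, the muscle glycogen phosphorylase. The changes ran from -12.5% for Pygm to 25.9% for Pgk1. The median log2 fold change of the members was 0.05, and that of all genes 0.005. Scaling to total counts, which raised the median of all genes to 0.04, gave 7 higher and 3 lower members, and 63.1% of all calls were then higher in place of 41.7%.

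**Figure D1:**
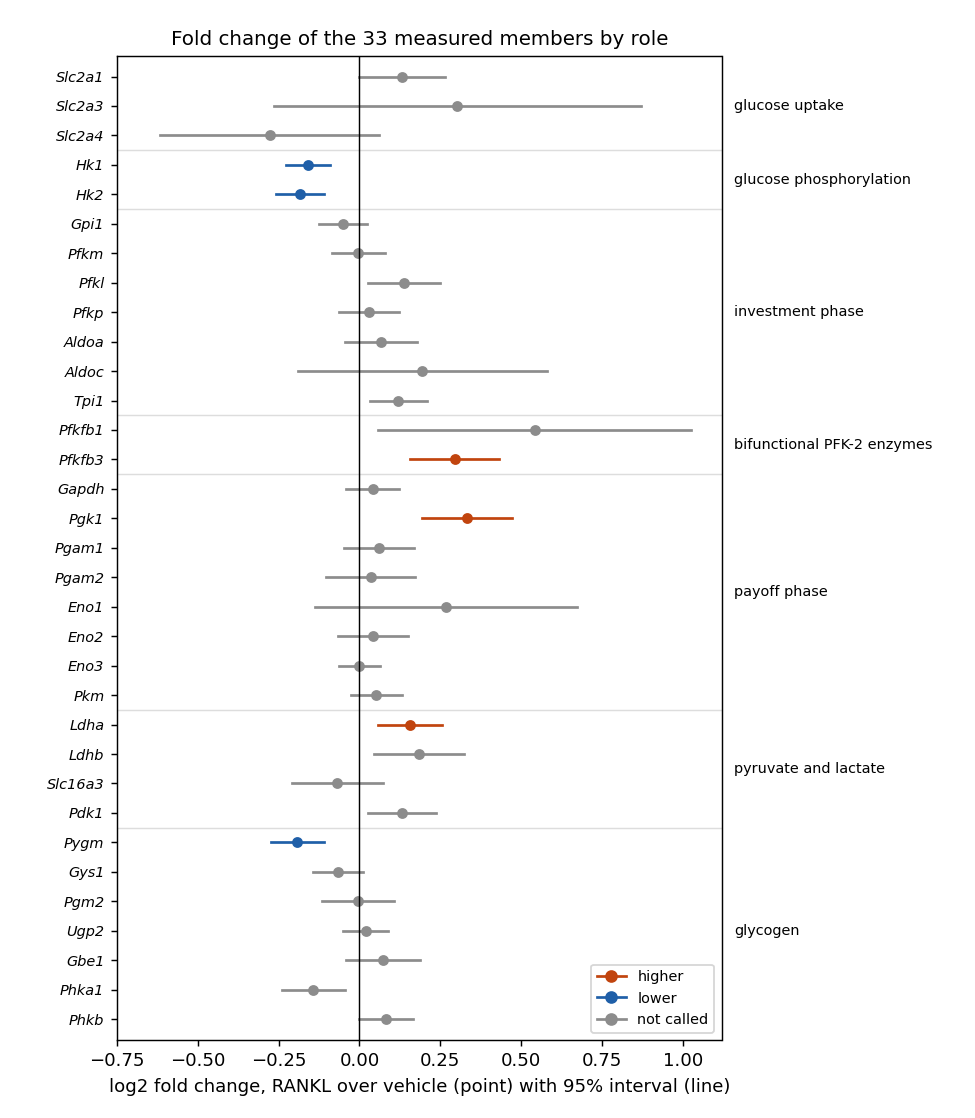
Log2 fold change (RANKL over vehicle) of the 33 measured members on the horizontal axis, grouped by role, with points for the edgeR estimate and lines for its 95% interval. The hexokinases and Pygm lie below 0, Pgk1, Ldha and Pfkfb3 above it, and the widest intervals belong to Slc2a3, Slc2a4, Aldoc, Pfkfb1 and Eno1, which had the fewest counts.

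The listed start sites of the members that rose or fell were read for ACGTG, because Pgk1 and Ldha are textbook genes with a hypoxia response element. ACGTG is 1 of the 2 forms of the core of that element, and GCGTG is the other. Matches marked and placed below are to ACGTG. The RefSeq promoter table on GRCm38.p6 (the assembly of mm10) held start sites for 32 of the 34 members, and the window searched was the 250 bases before each. A match on the other strand reads CACGT, matches that overlap on both strands were counted as 1, and CACGTG, which holds the match on both strands, is also an E-box. Matches stand in capitals in the windows below, each printed 5′ to 3′ on the strand of its gene, with 1 of the 2 listed starts shown for Ldha and for Pfkfb3.
Pgk1: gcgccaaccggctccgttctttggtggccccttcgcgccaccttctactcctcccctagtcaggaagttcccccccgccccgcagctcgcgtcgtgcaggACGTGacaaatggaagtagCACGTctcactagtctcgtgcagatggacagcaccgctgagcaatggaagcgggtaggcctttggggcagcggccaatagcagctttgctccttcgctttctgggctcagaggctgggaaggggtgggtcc
Ldha: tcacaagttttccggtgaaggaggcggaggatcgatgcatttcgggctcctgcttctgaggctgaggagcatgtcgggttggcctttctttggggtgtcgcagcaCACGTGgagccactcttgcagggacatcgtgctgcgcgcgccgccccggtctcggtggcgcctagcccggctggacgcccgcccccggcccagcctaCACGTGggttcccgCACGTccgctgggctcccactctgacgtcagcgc
Pfkfb3: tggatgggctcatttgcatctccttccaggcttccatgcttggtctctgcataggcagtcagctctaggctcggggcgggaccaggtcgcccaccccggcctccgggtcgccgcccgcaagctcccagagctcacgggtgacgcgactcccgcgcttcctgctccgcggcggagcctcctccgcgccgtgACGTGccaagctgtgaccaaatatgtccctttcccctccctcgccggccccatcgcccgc
Hk2: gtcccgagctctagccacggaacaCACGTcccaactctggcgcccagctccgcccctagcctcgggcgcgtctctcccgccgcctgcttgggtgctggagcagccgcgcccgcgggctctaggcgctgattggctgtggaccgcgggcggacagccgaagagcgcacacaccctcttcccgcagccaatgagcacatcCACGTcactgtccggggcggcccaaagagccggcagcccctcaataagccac
Pygm: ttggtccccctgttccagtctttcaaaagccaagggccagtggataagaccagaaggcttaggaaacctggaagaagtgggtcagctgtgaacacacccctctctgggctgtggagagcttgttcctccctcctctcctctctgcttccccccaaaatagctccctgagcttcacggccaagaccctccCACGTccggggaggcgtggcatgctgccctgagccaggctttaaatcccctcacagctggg
These windows lie at chrX:106186850-106187099 (plus strand) for Pgk1, chr7:46845554-46845803 (plus strand) for Ldha, chr2:11553930-11554179 (minus strand) for Pfkfb3, chr6:82774455-82774704 (minus strand) for Hk2 and chr19:6384158-6384407 (plus strand) for Pygm.

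Counted from the start site to the first base of the match, Pgk1 held ACGTG or its reverse complement at -150 and -131, and Ldha at -145, -48 and -34 in the window shown. The window before the other listed start of Ldha held no match. Pfkfb3 held 1 match at -60 in the window shown and 1 at -53 before its other listed start. Among the members that fell, Hk2 held matches at -226 and -52 and Pygm at -61, while neither window of Hk1 held one. Thus all 3 members that rose and 2 of the 3 that fell held ACGTG before at least 1 start. Among the members not called the count was 8 of 25 genes (32.0%). Over all members with a listed start it was 13 of 32 genes (40.6%), and over all listed genes 18.5%, or 16.6% of all windows. The listed genes numbered 26994 and the count table held 12625, so the share of 18.5% includes genes not measured here. It is not a share over expressed genes. GCGTG was read too, with 2 in 1 of the Hk1 windows, 1 in Pygm and 1 before the other listed start of Ldha and of Pfkfb3. Pgk1 and Hk2 held 0. Every called member thus held 1 of the forms, those that fell included. Of members not called, Pfkp held 3, Gapdh 2 and Phka1 2, and Gpi1, Tpi1 and Gys1 held 0. The share of GCGTG over all genes was not counted. A match is a description of the letters only, and binding was not measured.

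Among the transporters none passed the test. Slc2a1 (GLUT1, the basal transporter of growing cells) made up 93.4% ± 0.241 of the transporter RNA per length under vehicle (mean ± SD, n = 3, here and in all such values), and Slc2a4 (GLUT4, the insulin-responsive transporter of mature muscle) only 5.56% ± 0.430. Slc2a1 stood at 53.4, 52.9 and 53.1 CPM in the vehicle libraries and at 65.3, 57.1 and 51.9 CPM in RANKL replicates 1, 2 and 3. The RANKL libraries thus straddled the vehicle values (log2 fold change 0.13 ± 0.06 SE, adjusted p = 0.189), and without RANKL replicate 3 the gene was called (adjusted p = 0.0179). Slc2a4 stood at 3.53, 3.10 and 3.63 CPM under vehicle and 3.40, 2.91 and 2.11 CPM under RANKL, with a log2 fold change of -0.28 ± 0.16 short of the threshold (adjusted p = 0.284). As a share of the transporters it was 5.08% to 5.90% in the vehicle libraries and 3.58% to 4.54% in the RANKL libraries, so the groups did not overlap in the share although they did in the level. Slc2a3 (GLUT3) had 21 to 47 counts in a library and a log2 fold change of 0.30 ± 0.27, so a difference of the size seen in the other members was not detectable at this depth.

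Both hexokinases, which commit glucose to the cell, fell. Hk1, the constitutive form, stood at 217, 211 and 220 CPM under vehicle and at 198, 190 and 192 CPM under RANKL. All RANKL libraries lay below all vehicle libraries, and the change was -10.4% (95% interval -14.5% to -6.13%; log2 fold change -0.16 ± 0.03, adjusted p = 0.00434). Hk2, the insulin-induced form of muscle, stood at 198, 198 and 192 CPM under vehicle and at 178, 174 and 165 CPM under RANKL, again without overlap. Its change was -12.01% (95% interval -16.4% to -7.37%; log2 fold change -0.18 ± 0.03, adjusted p = 0.0030). The groups overlapped in the ratio between the forms. Hk1 made up 57.4% ± 0.864 of hexokinase RNA per length under vehicle and 57.9% ± 0.757 under RANKL. On mm10, Hk1 lies at chr10:62268855-62379908 and Hk2 at chr6:82725025-82774454, both on the minus strand. Exons of Hk1 overlap those of the antisense gene Hk1os, so its counts could include reads of that gene unless counting used strand, on which the labels are silent.

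The investment phase, from glucose 6-phosphate to triose phosphate, held 7 members and none passed the test. Pfkm, the muscle phosphofructokinase that sets the pace of glycolysis, made up 88.9% ± 0.377 of phosphofructokinase RNA per length under vehicle. It stood at 905, 899 and 890 CPM under vehicle and at 952, 881 and 854 CPM under RANKL (log2 fold change -0.0035 ± 0.04). The 95% interval of its difference ran from -0.09 to 0.08 on the log2 scale. The liver form Pfkl stood at 68.3 to 76.1 CPM under vehicle and 74.4 to 86.2 CPM under RANKL (log2 fold change 0.14 ± 0.05, adjusted p = 0.101). Its share of the phosphofructokinases was 5.63% to 6.12% in the vehicle and 6.33% to 6.56% in the RANKL libraries, while that of Pfkm was 88.6% to 89.3% and 88.2% to 88.4%, with no overlap in either. These shifts were under 1 percentage point. They are given as a description and were not tested, since an exact permutation test cannot give less than 0.10 with 3 libraries against 3.

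Gpi1 (phosphoglucose isomerase) stood at 519, 511 and 522 CPM under vehicle and 521, 502 and 476 CPM under RANKL. Aldoa, the muscle aldolase, stood at 1393, 1369 and 1405 CPM and at 1605, 1428 and 1332 CPM, the RANKL values lying on both sides of the vehicle values. Tpi1 (triosephosphate isomerase) stood at 459, 463 and 481 CPM and at 543, 502 and 479 CPM. Its log2 fold change of 0.12 ± 0.04 missed the threshold (adjusted p = 0.0726), and it was called without RANKL replicate 3 (0.016) and with total count scaling (0.029). Aldoc (the brain aldolase) and Pfkp (the platelet phosphofructokinase) had log2 fold changes of 0.19 ± 0.18 and 0.03 ± 0.04.

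Pfkfb3, whose kinase activity raises fructose 2,6-bisphosphate, rose. It stood at 14.4, 12.7 and 13.5 CPM under vehicle and at 16.9, 16.8 and 16.2 CPM under RANKL. The groups did not overlap and the RANKL libraries lay close together. The rise was 22.6% (95% interval 11.4% to 34.9%; log2 fold change 0.29 ± 0.06, adjusted p = 0.00817). Pfkfb3 lies at chr2:11471433-11554077 on the minus strand, with no exon shared with another gene. Pfkfb1, the liver and muscle form, had 22 to 37 counts in a library. Its log2 fold change of 0.54 ± 0.23 was the highest of all members but did not pass (adjusted p = 0.135), though the groups did not overlap.

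In the payoff phase, in which ATP and pyruvate are made, 1 of 8 members rose. Pgk1, which catalyses the first ATP-yielding step, stood at 172, 172 and 169 CPM in the vehicle libraries and at 244, 211 and 189 CPM in RANKL replicates 1, 2 and 3. The vehicle libraries had an SD of 1.54 CPM and the RANKL libraries one of 28.0 CPM, all of the latter above the vehicle values. The rise was 25.9% (95% interval 14.4% to 38.6%; log2 fold change 0.33 ± 0.06, adjusted p = 0.0038), and the log2 fold change was 0.23 without RANKL replicate 1. Pgk1 lies at chrX:106187100-106203699 on the plus strand. Pseudogene or related copies that carry the name of the member in GENCODE M21 numbered 3 for Pgk1 and 2 each for Gapdh, Aldoa, Ldha and Pgam1. The count table held 0 of these. Copies under other names were not counted, and the treatment of reads shared with any copy is not stated in the labels.

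**Figure D2:**
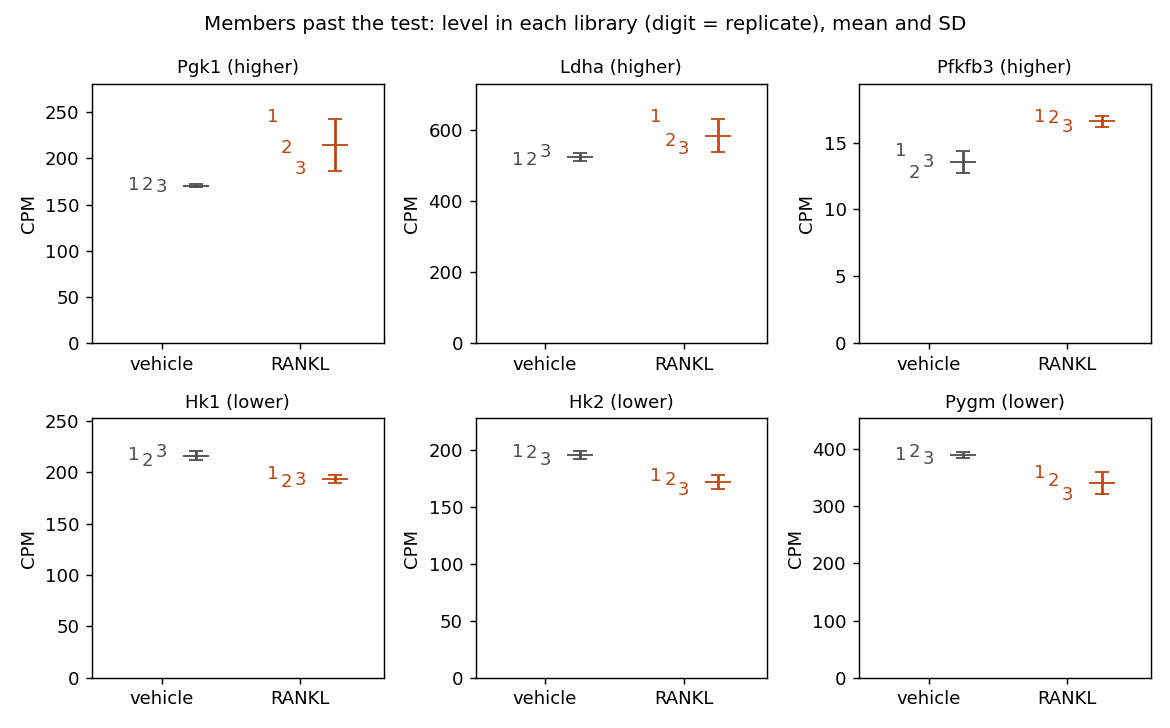
Level in CPM (vertical axes start at 0) of the 6 members past the test, with each digit marking a library by its replicate number and bars giving mean ± SD of 3 libraries. Vehicle and RANKL libraries do not overlap in any panel, and RANKL replicate 1 stands highest for Pgk1 at 244 CPM and for Ldha at 636 CPM.

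The neighbours of Pgk1 in the pathway did not pass the test. Gapdh stood at 1270, 1261 and 1298 CPM under vehicle and 1390, 1295 and 1254 CPM under RANKL (log2 fold change 0.04 ± 0.04, 95% interval -0.04 to 0.12). Pgam2, the muscle phosphoglycerate mutase, stood at 120, 123 and 124 CPM and at 141, 125 and 109 CPM, and made up 85.6% ± 0.386 of mutase RNA per length under vehicle and 85.4% ± 0.760 under RANKL. Eno3, the muscle enolase, stood at 1039, 1021 and 1035 CPM and at 1043, 1035 and 1016 CPM. The 95% interval of its log2 fold change, -0.06 to 0.06, was the narrowest of the 33 members. Pkm, pyruvate kinase, had the highest level in CPM of the members, 1720, 1670 and 1718 under vehicle and 1858, 1729 and 1709 under RANKL (log2 fold change 0.05 ± 0.04).

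Eno1, the enolase of non-muscle tissues, had only 40 to 58 counts in a library. Eno1b, which RefSeq lists with Eno1 among its synonyms, stood at 61.8 to 62.7 CPM under vehicle and 61.9 to 67.9 CPM under RANKL. The level of Eno1 is uncertain to that extent, and the 98.2% ± 0.0458 of enolase RNA per length assigned to Eno3 leaves Eno1b out.

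**Figure D3:**
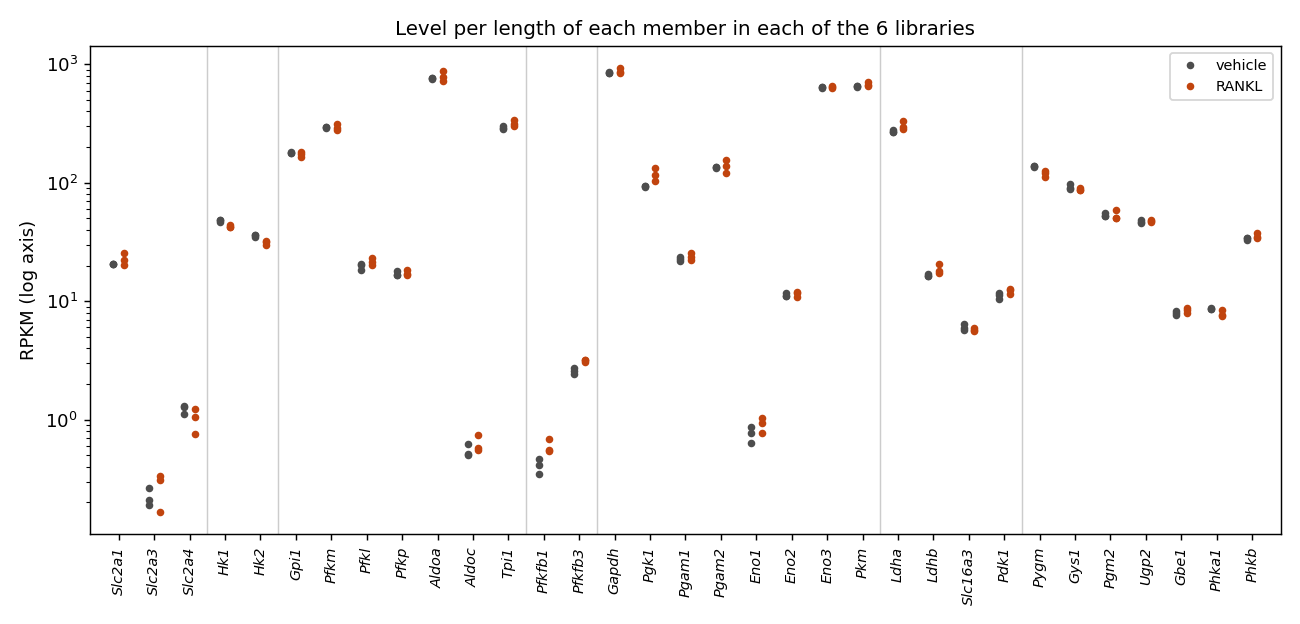
Level per length of each member (RPKM, log axis) in the 3 vehicle and 3 RANKL libraries, in pathway order with vertical lines between roles. Gapdh, Aldoa, Pkm and Eno3 lie highest, between 643 and 878 RPKM on average, and Slc2a3, Pfkfb1, Aldoc and Eno1 lie below 1 RPKM on average in both groups.

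Per length, that is in RPKM (CPM per kilobase of gene) with gene lengths implied by the authors' normalized table, the order under vehicle ran from Gapdh (853 ± 13.0) through Aldoa (762 ± 10.1), Pkm (655 ± 10.98) and Eno3 (643 ± 5.99) to Slc2a3 (0.221 ± 0.0405). Pkm and Eno3 differed by about the spread of their libraries, and Pfkm (294 ± 2.49) and Tpi1 (292 ± 7.39) by less than it. Between the most abundant enzymes and the entry of glucose lay a wide gap in level: Hk1 stood at 47.9 ± 0.924 and Slc2a1 at 20.7 ± 0.0952 RPKM. The same 4 genes led under RANKL, Gapdh at 878 ± 46.6, Aldoa at 798 ± 76.0, Pkm at 679 ± 31.1 and Eno3 at 643 ± 8.69 RPKM, and Gapdh lay above Aldoa in each of the 3 RANKL libraries.

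At the fate of pyruvate, Ldha rose and Ldhb (the heart-type subunit) did not pass. Ldha stood at 517, 518 and 539 CPM under vehicle and at 636, 570 and 548 CPM under RANKL. All RANKL libraries lay above the vehicle libraries, the lowest by a small margin. The rise was 11.5% (95% interval 4.17% to 19.4%; log2 fold change 0.16 ± 0.05, adjusted p = 0.0365). This call was lost on leaving out vehicle replicate 1 (adjusted p = 0.126), 2 (0.138) or 3 (0.0578), or RANKL replicate 1 (0.0724) or 2 (0.0612). Without RANKL replicate 1 the log2 fold change was 0.09. Ldhb stood at 21.1, 21.2 and 21.9 CPM and at 26.9, 23.3 and 22.5 CPM, with no overlap and a similar log2 fold change of 0.18 ± 0.06 (adjusted p = 0.0783). Ldha made up 94.3% ± 0.0212 of lactate dehydrogenase RNA per length under vehicle and 94.2% ± 0.0977 under RANKL. Ldha lies at chr7:46841475-46855627 on the plus strand.

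Slc16a3 (MCT4, which exports lactate from glycolytic fibres) stood at 14.6, 16.6 and 15.4 CPM under vehicle and at 14.6, 15.3 and 14.5 CPM under RANKL. Pdk1, which inhibits pyruvate dehydrogenase, stood at 58.4, 60.7 and 53.6 CPM and at 65.6, 64.1 and 59.5 CPM. Its log2 fold change of 0.13 ± 0.05 did not pass (adjusted p = 0.0949), and it was called under 4 of 14 alternatives, among them leaving out RANKL replicate 3 (0.032).

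Of 7 measured glycogen members 1 fell and none rose. Pygm, which releases glucose 1-phosphate from glycogen in muscle, stood at 390, 394 and 383 CPM under vehicle and at 358, 343 and 320 CPM under RANKL, without overlap. Its change was -12.5% (95% interval -17.3% to -7.39%; log2 fold change -0.19 ± 0.04, adjusted p = 0.00434). Pygm lies at chr19:6384399-6398459 on the plus strand, with no exon shared with another gene. Phka1, the muscle regulatory subunit of the kinase that activates phosphorylase, stood at 53.1, 52.2 and 52.7 CPM and at 46.3, 45.6 and 51.3 CPM. The groups did not overlap, and its log2 fold change of -0.14 ± 0.05 fell just short (adjusted p = 0.0544, and 0.0070 without RANKL replicate 3). Phkb, the beta subunit, stood at 157, 157 and 150 CPM and at 174, 159 and 159 CPM, a log2 fold change of 0.08 ± 0.04 of the opposite sign (adjusted p = 0.184).

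No member of the synthetic arm passed the test. Gys1, muscle glycogen synthase, stood at 356, 334 and 326 CPM under vehicle and 330, 322 and 319 CPM under RANKL (log2 fold change -0.07 ± 0.04, 95% interval -0.14 to 0.01). Ugp2, which makes UDP-glucose, stood at 143, 149 and 144 CPM and at 145, 148 and 149 CPM. Gbe1, the branching enzyme, stood at 24.5, 23.7 and 22.7 CPM and at 23.8, 25.9 and 24.9 CPM. The phosphoglucomutase listed as Pgm2 stood at 128, 123 and 122 CPM and at 137, 117 and 118 CPM, and the row listed as Pgm1 at 13.7 to 14.7 and 14.1 to 16.1 CPM. RefSeq gives each of these symbols as a synonym of the other gene, so which phosphoglucomutase either row counts depends on the annotation the authors used and could not be settled.

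In all, the groups did not overlap in 10 of 33 members. RANKL lay above in 6 (14.9% of all genes did so) and below in 4 (16.6% of all genes). Besides the 6 called members these were Pfkfb1, Ldhb and Phkb above and Phka1 below. Without RANKL replicate 3, Slc2a1, Pfkl, Tpi1, Ldhb and Pdk1 joined the higher and Phka1 the lower members, giving 8 and 4 with 12.8% of all genes called.

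**Figure D4:**
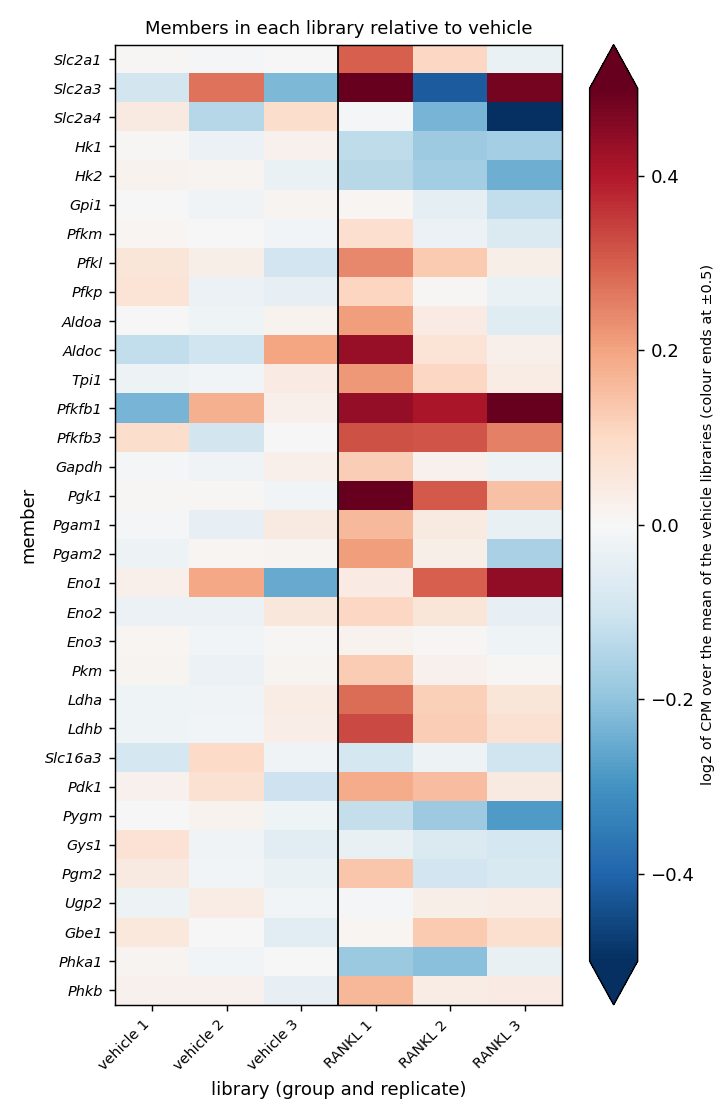
Log2 of each library's CPM over the mean of the vehicle libraries, for 33 members (rows) and 6 libraries (columns), with red above and blue below vehicle. The column of RANKL replicate 1 is the highest of the RANKL columns in 27 of 33 rows, while Hk1, Hk2 and Pygm are blue in all 3 RANKL columns.

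Further genes of glucose use were read from lists that were chosen with earlier results of these data known. Among 30 measured further glycolysis and glycogen genes 0 rose and 2 fell by edgeR (5 at an unadjusted p under 0.05, and 0 and 1 by DESeq2), that is 6.67% against 12.9% of all genes called, with a median log2 fold change of 0.006. Gaa, the lysosomal glucosidase that degrades glycogen, averaged 192 ± 2.52 CPM under vehicle and 170.4 ± 3.48 CPM under RANKL (-0.17 ± 0.03 on the log2 scale, adjusted p = 0.00261). Phka2, the liver counterpart of Phka1, fell from 53.8 ± 2.05 to 48.7 ± 1.20 CPM (-0.14 ± 0.04, adjusted p = 0.0321), a call lost on leaving out vehicle replicate 1 (0.123) or 2 (0.129) or RANKL replicate 2 (0.134), with total count scaling (0.0757) and by DESeq2 (0.0621).

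Among 29 measured genes of pyruvate, lactate and the shuttles 1 rose and 2 fell, 10.3% against 12.9% of all genes, with a median log2 fold change of 0.02. Pcx (pyruvate carboxylase) fell from 109 ± 3.14 to 94.8 ± 1.93 CPM (-0.20 ± 0.03, adjusted p = 0.00161), and Gpt2 (mitochondrial alanine aminotransferase) from 84.7 ± 0.763 to 74.1 ± 4.19 CPM (-0.19 ± 0.04, adjusted p = 0.00578). Slc16a1 (the lactate carrier MCT1) rose from 77.0 ± 2.02 to 85.1 ± 3.88 CPM (0.14 ± 0.04, adjusted p = 0.0257), and this call was lost without any one vehicle replicate (0.0506 to 0.110) and without RANKL replicate 2 (0.110) or 3 (0.065). Of 12 pentose phosphate genes 1 rose and 0 fell, 8.33% against the same 12.9% (median 0.03, with 2 at an unadjusted p under 0.05). G6pdx, the entry enzyme of that pathway, went from 23.1 ± 2.13 to 27.1 ± 1.35 CPM (0.23 ± 0.06, adjusted p = 0.0314), and was not called without vehicle replicate 1 (0.137) or 2 (0.139) or RANKL replicate 1 (0.0674) or 2 (0.0746).

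The list of 28 measured hypoxia response genes outside glycolysis also held genes of hypoxia-inducible factor and its control, such as Hif1a, Arnt and Vhl. Of the 28, 5 rose and 0 fell by edgeR, that is 17.9% higher against 5.35% of all genes higher (median log2 fold change 0.06). In either direction, 12 had an unadjusted p under 0.05. Estimates were positive in 21 and negative in 7, from -0.336 to 0.889. All RANKL libraries lay above vehicle in 7 genes (14.9% of all genes did so) and below in 4 (16.6% of all genes). Plod2 (a collagen lysyl hydroxylase) rose from 115 ± 1.88 to 135 ± 1.58 CPM (0.23 ± 0.03, adjusted p = 0.000304). Car9 (a carbonic anhydrase of hypoxic cells) stood at 3.86, 4.78 and 3.44 CPM under vehicle and at 10.1, 6.55 and 5.49 CPM in RANKL replicates 1, 2 and 3. Its log2 fold change of 0.89 ± 0.19 (adjusted p = 0.00667) was 0.59 without RANKL replicate 1. Vegfa rose by log2 0.14 ± 0.04 and Bnip3l by 0.14 ± 0.03, and the fifth was Bnip3 (0.35 ± 0.09, adjusted p = 0.0147), named after its value was seen. Bnip3 was 0.21 without RANKL replicate 1, and it was not called without vehicle replicate 1 (0.0819) or 2 (0.0551) or by DESeq2 (0.105). The call of Vegfa was lost without vehicle replicate 2 (0.0629) or 3 (0.0576) or RANKL replicate 2 (0.0595), and that of Bnip3l without vehicle replicate 2 (0.0616). As among the members, RANKL replicate 1 had the highest RANKL value in 20 of these 28 genes (71.4%, against 35.6% of all genes). Without vehicle replicate 2 this list held 2 higher genes and without RANKL replicate 3 it held 8.

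Of 28 measured regulators of glucose uptake and glycolytic genes 1 rose and 4 fell, 17.9% against 12.9% of all genes called (median log2 fold change -0.05). Txnip, which restrains glucose uptake and is itself induced by glucose, stood at 123, 111 and 101 CPM under vehicle and at 236, 157 and 136 CPM in RANKL replicates 1, 2 and 3. Its log2 fold change of 0.67 ± 0.14 (adjusted p = 0.00654) was 0.40 without RANKL replicate 1, and DESeq2 did not call it (adjusted p = 0.0889). Irs1, the docking protein of the insulin receptor, fell from 136 ± 4.25 to 112 ± 5.80 CPM (-0.28 ± 0.04, adjusted p = 0.000436), and Mef2d, a muscle transcription factor, from 296 ± 12.4 to 250.4 ± 7.05 CPM (-0.24 ± 0.04, adjusted p = 0.000596). Prkaa2, the muscle catalytic subunit of AMP-activated kinase, went from 58.5 ± 3.72 to 51.7 ± 2.71 CPM with overlapping groups (-0.18 ± 0.05, adjusted p = 0.0321). Its call was lost without vehicle replicate 1 (0.123) or 2 (0.150) or RANKL replicate 2 (0.143) and with total count scaling (0.0645). The fourth, Prkab1 (a beta subunit of the same kinase; -0.15 ± 0.04, adjusted p = 0.0441), was named after its value was seen and lost its call without any one of the 6 libraries (0.0666 to 0.137). In place of 4 regulators, 2 fell without RANKL replicate 2 and on leaving out vehicle replicate 1 or 2.

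Markers of myotubes and of cycling myoblasts moved beside these results. Of 10 myotube markers 8 were measured, and the fusion genes Mymk and Mymx are not analysed here. Of the 8, 4 fell (Myh3, Myh8, Acta1 and Ryr1), where 7.5% of all genes did. The other 4 were not called and had small positive estimates on the log2 scale, 0.04 for Ckm, 0.03 for Mylpf, 0.05 for Tnnt3 and 0.01 for Myog. The summed level of the 8 was 23143 to 23351 CPM in the vehicle and 21349 to 21806 CPM in the RANKL libraries. Of 6 markers of proliferating myoblasts 4 rose, all of them cell cycle genes (Mki67, Ccnb1, Top2a and Cdk1), where 5.35% of all genes did. The 2 markers of myoblast identity did not pass: Pax7 averaged 0.729 CPM in the vehicle and 0.593 CPM in the RANKL libraries (-0.31 ± 0.24 on the log2 scale, adjusted p = 0.444), and Myf5 15.4 and 17.0 CPM (0.14 ± 0.07, adjusted p = 0.229). The summed level of the 6 was 92.8 to 102 CPM under vehicle and 124 to 146 CPM under RANKL. In bulk RNA, fewer cells of a type and less RNA per cell cannot be told apart, and the part of these markers in the members' changes was not tested. Of the macrophage and osteoclast markers 3 of 9 were measured, summing to 4.66 to 5.31 CPM under vehicle and 5.82 to 6.95 CPM under RANKL, with 0 called by edgeR and 1 at an unadjusted p under 0.05. The defining markers Adgre1, Csf1r, Ptprc, Ctsk and Acp5 are not analysed here. Of adipocyte, endothelial and osteoblast markers, 2 of 6, 2 of 5 and 3 of 6 were measured, and edgeR called 0 of each, with 1, 0 and 2 at an unadjusted p under 0.05.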

How the data were processed

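RNA from 6 libraries was sequenced in paired reads on a HiSeq, per the labels' protocols. The submitters' processing notes list FastQC, STAR, edgeR and mm10 with no role or version. Counter, annotation and strand setting were not given in the sources used here. Per the file headers and values, the authors deposited whole-number counts per gene symbol and a second table of log2 values, which from the values are log2 RPKM. Low genes were absent from the deposited counts: in each gene the third-highest library reached at least 0.504 CPM. The 4708 lines with no gene were left out.

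Groups were compared by the quasi-likelihood test of edgeR 4.0.16 (R 4.3.3) after TMM scaling, and p-values were adjusted over all 12625 genes (Benjamini-Hochberg, threshold 0.05), since filterByExpr left out 0 genes. CPM values use scaled totals. SE is the log2 fold change over the square root of F. RPKM values are CPM over the gene length implied by both tables. A CPM of 0.0772 to 0.0906 corresponds to 3 counts. DESeq2 1.42.0, limma-voom (limma 3.58.1), other scalings and filters, a replicate block, removal of the trend on gene length and leaving out each library were alternatives. Chi-square per gene between replicates was 3.39 to 9.52, above sampling noise, and each library was 1 sample. On data simulated for RANKL against vehicle over 12625 genes, 73.1% of changes of log2 0.3 and 100% of changes of log2 1 were recovered, and 2.84% of calls were unchanged genes. The simulated spread followed the trend on level, with none particular to a gene. No change under log2 0.3 was simulated, so these rates do not cover changes of the size seen for Ldha, Hk1, Hk2 and Pygm.

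The members and lists were chosen with earlier results of these data known. The naming rule took every member, with values per library for those past the threshold and for the most abundant per length at each step, and up to 4 called genes of each list by smallest p. Positions come from GENCODE M21 and promoters from RefSeq. Among the 34 members, Pfkm and Pkm (2 genes) overlap a same-strand gene in exons, and 11 overlap an opposite-strand gene (Slc2a1, Hk1, Gpi1, Pfkm, Pfkp, Tpi1, Pfkfb1, Gapdh, Gys1, Ugp2 and Phkg1). The Aldoa interval read for this, chr7:126800790-126809108, holds none of its RefSeq promoter windows. Overlaps of Aldoa were therefore not settled.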

Additional observations from a re-analysis of the deposited data

How the results depend on the processing

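The calls of Pgk1, Pfkfb3, Hk1, Hk2 and Pygm held under all 14 alternatives, with log2 fold changes of 0.23 to 0.42 for Pgk1, 0.25 to 0.34 for Pfkfb3, -0.17 to -0.13 for Hk1, -0.21 to -0.15 for Hk2 and -0.23 to -0.15 for Pygm. Ldha lost its call in 5 of them, each leaving out 1 library. Over 460 values of members under alternatives, 5 lost a call, 14 gained one and 20 changed sign, none of these last in a called member. Changes of this size depend on depth, and members with under 100 counts in some library (Slc2a3, Slc2a4, Aldoc, Eno1 and Pfkfb1) could show only large ones.

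Higher members numbered 3 in the main test, 7 with total count scaling and 2 to 8 on leaving out 1 library. Lower members numbered 3, and 3 to 4 on leaving out 1 library. With the replicate number as a block there were 5 higher (with Pfkl and Pdk1) and 4 lower members (with Phka1; all genes: 730 higher and 1008 lower), and 1 higher gene among the further glycolysis genes and 2 among the pentose phosphate genes. Whether the numbers pair the samples could not be decided from the values. Same-numbered libraries correlated weakly in their deviations, by 0.118, 0.0534 and 0.0178. Vehicle replicates 1 and 2 correlated best with the RANKL library of their own number, and vehicle replicate 3 with RANKL replicate 2. The block moved no other count by over 1.5 times.

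Further glycolysis and glycogen genes: 1 was higher with total count scaling and with the length trend removed, 1 was lower with total count scaling and by DESeq2, and leaving out 1 library gave 0 to 1 higher and 1 to 3 lower. Pyruvate, lactate and shuttle genes: 2 were higher with total count scaling, with 0 to 2 higher and 2 to 3 lower on leaving out 1 library. Pentose phosphate genes: 2 were higher with total count scaling and 2 with the length trend removed, and 0 to 3 on leaving out 1 library. Hypoxia response genes: 8 were higher with total count scaling, 1 was lower with the length trend removed, and 2 to 8 were higher on leaving out 1 library. Regulators: 2 were higher and 2 lower with total count scaling, 0 were higher by DESeq2, and leaving out 1 library gave 1 to 2 higher and 2 to 5 lower. Apart from fewer samples on leaving out a library, the cause was not tested. Of all genes, leaving out 1 library left 373 to 746 higher and 537 to 880 lower.

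The sign changes all lay near 0 and were not called. With total count scaling, log2 fold changes were 0.027 for Pfkm, 0.031 for Eno3 and 0.025 for Pgm2. Pgam2 was -0.013 with the length trend removed. Eno3 was 0.00031 with both RLE scaling and DESeq2 and 0.0029 with a mean of at least 1 CPM. On leaving out 1 library, Pfkm ranged from -0.047 to 0.032, Pfkp from -0.012 to 0.065, Aldoa from -0.0071 to 0.129, Pgam2 from -0.060 to 0.125, Eno3 from -0.0075 to 0.013 and Pgm2 from -0.083 to 0.040. Isoform shares from CPM in place of RPKM moved by over 1 SD in 17 of 19 cases, since the isoforms differ in length.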
